A study of Homo sapiens with 4 samples.

Results

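The zinc finger cluster at the end of the long arm of chromosome 12, in band 12q24.33, was examined as 7 rows of a promoter accessibility table. The members were found by matching the NCBI Gene IDs of the table to gene symbols, and were ZNF605, ZNF26, ZNF84, ZNF140, ZNF891, ZNF10 and ZNF268, in order toward the telomere. They made up 7 of 28775 rows. The assay was ATAC-seq, where Tn5 transposase places sequencing adapters into exposed DNA, and each row holds the number of fragments at a promoter. The cells were HEK293T, an established human embryonic kidney line that carries the SV40 large T antigen. The 2 wild-type (WT) libraries came from unedited cells and carried no guide RNA. The 2 MORC2 knock-out (KO) libraries came from cells edited with Cas9 and a guide RNA against MORC2, with guide 1 in KO replicate 1 and guide 2 in KO replicate 2. The KO cells were bulk pools, not clones. Each guide had a single library, so guide and replicate cannot be told apart.

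The members are KRAB zinc finger genes. Proteins of this class bind DNA through a row of C2H2 zinc fingers, and the KRAB domain recruits TRIM28 (KAP1), which in turn brings in SETDB1 and heterochromatin protein, so that the target is marked by H3K9 methylation and silenced. Many of them bind transposable elements, and their genes lie in clusters whose zinc finger exons are often marked by H3K9 methylation. ZNF10, also called KOX1, is the source of the KRAB domain that is fused to inactive Cas9 to repress genes in CRISPR interference. MORC2 is an ATPase that works with the HUSH complex, another pathway of silencing through H3K9 methylation. The comparison of KO with WT asks whether the promoters of these genes changed in accessibility when MORC2 was lost.

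The promoter sequences of the members are shown first, because several share a short run of letters close to the gene start. RefSeq windows on GRCh38.p14, from 250 bases before to 50 bases after a gene start, were matched for 7 of 7 members by symbol. The libraries were aligned to another assembly, CHM13, so these windows give sequence only, and no count was placed on them. The letters TGTAGTT are a part, not the whole, of the element bound by ZNF143 and its frog homologue Staf. They stood in the windows of 4 of 7 members, ZNF605, ZNF26, ZNF140 and ZNF268. They occurred in 3.19% of 35116 RefSeq windows of the same length, with both strands searched (AACTACA on the other). In each of these members the letters were preceded by GGGA and any pair of bases, a longer form held by 0.851% of all windows. ZNF605 and ZNF140 each held 2 matches. This motif was chosen after the member sequences were read, and a match in letters is not a binding site. The matches are given with 15 bases on either side, 5′ to 3′ on the strand of the gene, with the 7 letters in capitals.
ZNF605, match 33 bases before the start, chr12:132956318-132956354, minus strand: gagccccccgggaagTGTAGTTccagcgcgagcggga
ZNF605, match that runs over the start, chr12:132956286-132956322, minus strand: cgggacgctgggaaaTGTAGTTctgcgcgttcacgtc
ZNF26, match 65 bases before the start, chr12:132986287-132986323, plus strand: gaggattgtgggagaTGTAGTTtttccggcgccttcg
ZNF140, match 229 bases before the start, chr12:133080679-133080715, plus strand: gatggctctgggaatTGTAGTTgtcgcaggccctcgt
ZNF140, match 106 bases before the start, chr12:133080802-133080838, plus strand: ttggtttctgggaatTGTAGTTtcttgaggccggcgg
ZNF268, match 47 bases before the start, chr12:133181433-133181469, plus strand: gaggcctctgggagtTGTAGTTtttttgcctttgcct

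The windows of ZNF891 and ZNF10 held no such exact match. Close to its start, ZNF891 has GGGA, a pair of bases and then CGTAGTT in place of TGTAGTT. The search counted exact letters only. These genes are transcribed away from each other, ZNF891 on the minus strand and ZNF10 on the plus strand, and the upstream parts of their windows overlap by 148 bases. This stretch is shown because their rows of the count table, given with the values, held nearly the same fragments. Capitals mark a GC box, GGGCGG.
ZNF891 and ZNF10, shared stretch, chr12:133130377-133130524, plus strand: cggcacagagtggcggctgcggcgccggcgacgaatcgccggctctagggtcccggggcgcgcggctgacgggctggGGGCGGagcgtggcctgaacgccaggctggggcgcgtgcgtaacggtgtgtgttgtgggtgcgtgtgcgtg

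The window of ZNF84 held no ZNF143-type letters either. RefSeq lists 2 starts for ZNF84, and only the window of the first was searched as a member. The shares over all windows use every listed start. Its upstream 250 bases are shown because they carry other letters, in capitals: GC boxes and E-boxes (CACGTG), and, at the left, letters of the NRF1 element that match on either strand and overlap.
ZNF84, upstream stretch, chr12:133037259-133037508, plus strand: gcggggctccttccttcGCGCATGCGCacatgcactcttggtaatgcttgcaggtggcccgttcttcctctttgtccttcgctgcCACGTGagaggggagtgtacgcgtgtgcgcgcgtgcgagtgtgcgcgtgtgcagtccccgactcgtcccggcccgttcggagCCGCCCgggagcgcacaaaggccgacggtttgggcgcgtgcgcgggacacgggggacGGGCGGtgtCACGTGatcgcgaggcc

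**Figure D1:**
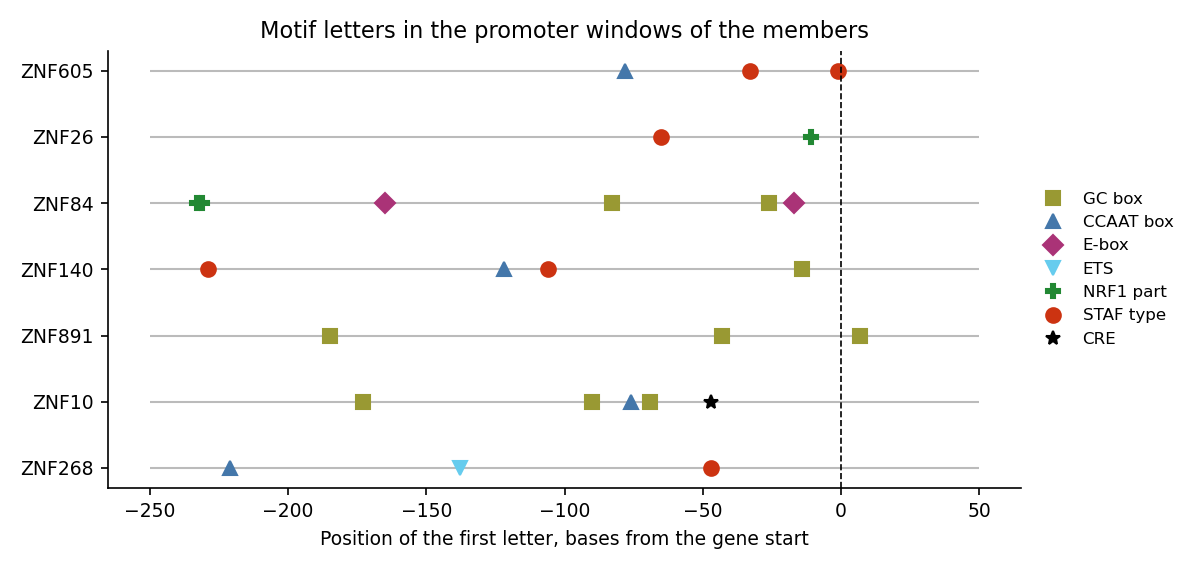
Positions of motif letters in the RefSeq promoter windows (GRCh38.p14) of the 7 members, with distance from the gene start in bases on the x axis and 1 line per member. Each symbol is the first letter of a match on either strand. The ZNF143-type letters (STAF type, circles) lie in 4 of 7 windows, and the GC box (squares) in 4 of 7.

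GC boxes were found in 4 of 7 members (ZNF84, ZNF140, ZNF891 and ZNF10), against 45% of all windows. The CCAAT box, searched like the others on both strands, was also found in 4 of 7, ZNF605, ZNF140, ZNF10 and ZNF268, against 34.6%. The NRF1 letters GCGCATGC stood in ZNF26 and ZNF84 (3.05% of all windows), the E-box in ZNF84 alone (7.26%), the ETS letters CCGGAAG in ZNF268 alone (10.3%), and the cAMP response element TGACGTCA in ZNF10 alone (1.85%). All 7 windows held more CpG than the median window, to differing degrees. The number of CpG dinucleotides ranged from 20 in ZNF268 to 46 in ZNF84 and ZNF10, where the median window held 14. ZNF268 and ZNF605 stood at the 58.8th and 66.1th percentile of all windows by this number, and ZNF84 and ZNF10 at the 97.1th.

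The libraries held between 9435801 and 15152636 promoter counts. Mitochondrial rows took 20.6% of the count in KO replicate 2 and between 31.8% and 35.1% elsewhere. KO replicate 2, with the most nuclear fragments, thus stood apart. Housekeeping promoters were open in WT cells, with ACTB, EEF1A1 and GAPDH between 70.2 and 98.7 CPM (counts scaled to the size of the library). Of the embryonic kidney markers reported here, LHX1 (19.1 CPM) was open, whereas PAX2 (7.16 CPM) and EYA1 (5.75 CPM) were close to the 6 promoters of other lineages, which lay between 1.71 and 6.82 CPM. The targeted gene kept an accessible promoter, with 403 and 639 fragments at MORC2 in the KO libraries against 247 and 267 in the WT libraries. Promoter accessibility does not check an edit in the coding sequence.

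All 7 promoters passed the filter on low counts, with 85 to 1681 fragments per library. Summed, with the fragments of the ZNF891 and ZNF10 pair counted once, the cluster reached 214 CPM in KO replicate 1 and 231 CPM in KO replicate 2, against 194 CPM in WT replicate 1 and 188 CPM in WT replicate 2. The KO values thus exceeded the WT values without overlap. This sum was not tested, since with 2 libraries a side the smallest two-sided p of the exact permutation test is 0.333.

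The members differed more from one another than between genotypes. In WT cells ZNF140 was the most accessible member at 77.6 ± 9.43 CPM (SD, n = 2), where CPM were scaled by TMM and the study's methods give all promoters 1 window length. ZNF891 at 38.0 ± 0.290 CPM and ZNF10 at 37.9 ± 0.740 CPM came next and did not differ beyond their spread. They were followed by ZNF26 at 24.4 ± 0.786 CPM, ZNF84 at 22.8 ± 1.01 CPM, ZNF605 at 17.8 ± 3.08 CPM and ZNF268 at 10.9 ± 2.92 CPM. Apart from the ZNF891 and ZNF10 pair, the WT libraries of neighbours in this order did not overlap, though ZNF26 and ZNF84 were close, at 23.8 and 24.9 CPM against 22.0 and 23.5 CPM. Among all tested promoters ZNF140 stood at the 96.0th percentile in WT and ZNF268 at the 43.8th.

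**Figure D2:**
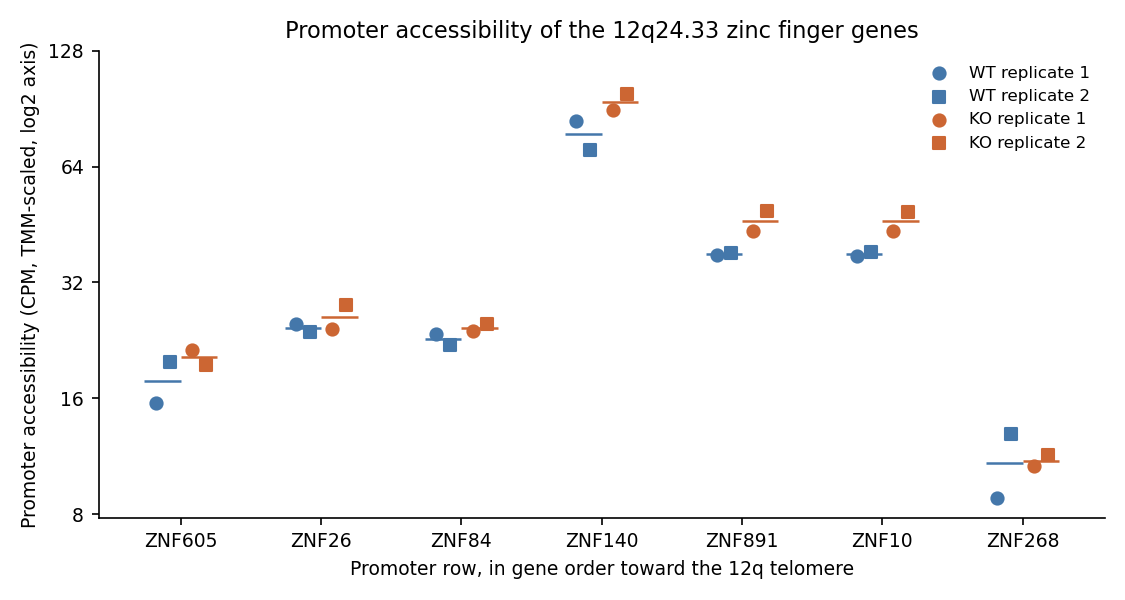
Promoter accessibility of the 7 members in CPM (TMM-scaled, log2 axis) in each of the 4 libraries, with horizontal bars at the group means (n = 2). ZNF140 is highest, at 70.9 and 84.2 CPM in WT and 90.1 and 98.6 CPM in KO, and the KO libraries lie above the WT libraries at ZNF140, ZNF891, ZNF10 and ZNF84.

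Of the 7 members, 3 rose in MORC2 KO by edgeR's quasi-likelihood test at an adjusted p under 0.05, namely ZNF140, ZNF891 and ZNF10, and 0 fell. The same 3 had an unadjusted p under 0.05. ZNF891 and ZNF10 count nearly the same fragments, so the calls stand for 2 promoter regions of 6. Over all 27647 tested promoters 4.45% were called, and 3.45% were called higher. The median log2 fold change was 0.20 for the 7 members and −0.017 for all tested promoters. With ZNF891 left out, as its row repeats ZNF10, the member median was 0.15. All 7 had a log2 fold change above 0, as had 46.7% of all tested promoters. The share was 61.6% for the other promoters with a symbol of ZNF and digits. In the lists described below it was 75% at 8q24.3 and 50% at 7q11.21.

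ZNF140, a KRAB repressor gene in the middle of the cluster, was covered by 982 and 1681 fragments in KO, and by 811 and 640 in WT (replicates 1 and 2 of each). After scaling these were 90.1 and 98.6 CPM in KO, and 84.2 and 70.9 CPM in WT. The groups did not overlap, but KO replicate 1 and WT replicate 1 were near each other. KO exceeded WT by 0.29 on the log2 scale (adjusted p in edgeR 0.00159, SE 0.064), a fold of 1.22 with a 95% interval of 1.12 to 1.33. When WT replicate 2 was left out, ZNF140 was at 0.17 and the call was lost (edgeR adjusted p 0.242), and when WT replicate 1 was left out it was at 0.42.

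ZNF10 was covered by 474 and 833 fragments in KO, and by 360 and 347 in WT. These were 43.5 and 48.8 CPM in KO, against 37.4 and 38.4 CPM in WT, and the groups did not overlap. The WT libraries were close to each other, and the KO libraries differed by 11.6% of their mean. The difference was 0.30 on the log2 scale (adjusted p in edgeR 0.00914, SE 0.077), a fold of 1.23 with a 95% interval of 1.11 to 1.36.

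ZNF891 held 474 and 835 fragments in KO and 364 and 345 in WT, within 1.10% of ZNF10 in every library. Its log2 fold change was likewise 0.30 (adjusted p in edgeR 0.00956). The counts therefore do not assign the rise to either of these divergent genes.

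The other 4 members were not called. ZNF605, the member nearest the centromere, held 233 and 333 fragments in KO and 150 and 180 in WT, or 21.4 and 19.5 CPM against 15.6 and 19.9 CPM. WT replicate 2 lay above KO replicate 2, so the groups overlapped, and the log2 difference was 0.20 (adjusted p in edgeR 0.292, SE 0.11, 95% interval −0.018 to 0.41). The value depended on which WT library was used, at 0.38 without WT replicate 2 and 0.025 without WT replicate 1.

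ZNF26, also called KOX20, held 264 and 476 fragments in KO and 240 and 215 in WT, or 24.2 and 27.9 CPM against 24.9 and 23.8 CPM. KO replicate 1 lay between the WT libraries. KO exceeded WT by 0.11 on the log2 scale (adjusted p in edgeR 0.524, SE 0.096), with a 95% interval from −0.076 to 0.30.

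ZNF84 held 261 and 425 fragments in KO and 226 and 199 in WT, or 23.9 and 24.9 CPM against 23.5 and 22.0 CPM. The groups did not overlap but lay close together, with a log2 difference of 0.11 (adjusted p in edgeR 0.569, SE 0.099) and a 95% interval from −0.089 to 0.30. The value for ZNF84 was 0.063 without WT replicate 2 and 0.15 without WT replicate 1. The row of ZNF84-DT, a divergent non-coding transcript, was within 0.995% of ZNF84 in every library and had a log2 fold change of 0.092.

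ZNF268, the member nearest the telomere and the shallowest, held 116 and 194 fragments in KO and 85 and 117 in WT, or 10.6 and 11.4 CPM against 8.83 and 12.96 CPM. Both KO libraries lay between the WT libraries, which differed by 37.9% of their mean. The log2 difference was 0.031 (adjusted p in edgeR 0.928, SE 0.14), with a 95% interval of −0.25 to 0.31. This interval contains a rise as large as that of ZNF10, as do the intervals of ZNF605, ZNF26 and ZNF84. The lack of a call at these members thus does not exclude such a rise.

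The KO libraries exceeded the WT libraries without overlap at 4 of 7 members. With the ZNF891 and ZNF10 fragments counted once this was so at 3 of 6, and over all tested promoters at 25.2%. In the lists described below, it was so at 6 of 12 neighbours and 179 of 469 other ZNF rows. Of the promoters of KRAB cofactors and HUSH with MORC2, it was so at 9 of 14. At 7q11.21 it was so at 4 of 10, and at 8q24.3 at 4 of 8. The 6 neighbours include ZNF84-DT, whose row repeats the member ZNF84. They also include the pairs POLE with PXMP2 and CHFR with CHFR-DT, each with nearly equal counts. The 9 include MORC2, TASOR, PPHLN1 and MPHOSPH8. The reverse order held at 7010 of 27647 tested promoters. In the lists it held at 0 members, 4 neighbours, 84 other ZNF rows and 1 promoter of the KRAB and HUSH list. It held at 2 promoters at 7q11.21 and 0 at 8q24.3. The uncalled members were those with fewer fragments. The 95% intervals of all 7 overlapped, and the difference between members was not tested.

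**Figure D3:**
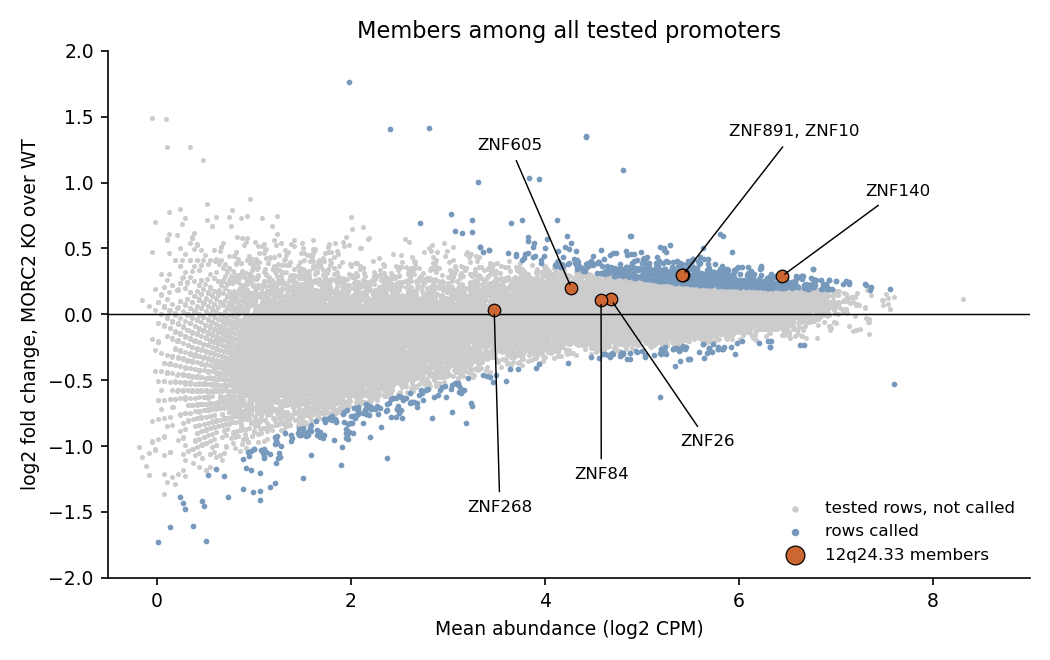
Log2 fold change of MORC2 KO over WT against mean abundance in log2 CPM for the tested promoters, with the 7 members as large circles. The plot ends at 9 on the x axis, beyond which lie 36 mitochondrial rows. ZNF140, ZNF891 and ZNF10 lie among the called rows at 0.29 to 0.30, and the other members lie at lower abundance among the uncalled rows.

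The called members depended on the scaling and on single libraries. Over all promoters the median moved from −0.017 with TMM to 0.12 with total counts alone, and on that scale the median of the members was 0.33 with 0 members called in edgeR (4 at an unadjusted p under 0.05, lowest adjusted p 0.443). With loess offsets, which remove the trend of fold change with abundance, the members had a median of 0.18. ZNF140 alone was then called, at 0.20 (edgeR adjusted p 0.0422), while ZNF10 and ZNF891 were each at 0.23 (adjusted p 0.0952 and 0.0990). Of all calls 77.6% were higher with TMM, 95% with total counts and 55.7% with loess offsets. The DESeq2 Wald test called 0 members (3 at an unadjusted p under 0.05), with log2 fold changes of 0.29 for each of ZNF140, ZNF891 and ZNF10. Without KO replicate 2, which stood apart in mitochondrial share and depth, 0 members were called, and ZNF140, ZNF891 and ZNF10 were at 0.22, 0.20 and 0.20. Without WT replicate 2, 0 members were called either. The part that depth and mitochondrial share played in the rise was not tested beyond these fits.

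The genes around the cluster gave 0 calls in the direction of the members, where 3.45% of all tested promoters were called higher. With 12 rows, a count of 0 does not set these genes apart from all promoters. The 12 neighbouring rows, 10 on the centromere side, 1 between members and 1 on the telomere side, had a median log2 fold change of 0.078 and a range from −0.77 to 0.24. These rows are fewer separate regions than 12. The row between members, ZNF84-DT, repeats that of ZNF84, and POLE with PXMP2 and CHFR with CHFR-DT had nearly equal counts. By edgeR 0 of the 12 rows were called higher and 1 was called lower, and 2 had an unadjusted p under 0.05. That 1 was ANHX, a homeobox gene and the last row before the telomere, which held 34 and 50 fragments in KO and 51 and 45 in WT. Its log2 fold change was −0.77 (adjusted p in edgeR 0.0298, SE 0.23), and the groups did not overlap. The call of ANHX rested on low counts. It was lost when any 1 of the libraries was left out (adjusted p from 0.0775 to 0.331), with total counts, the edgeR 4 fit, DESeq2, limma-trend and thinned counts, and with loess offsets, where the log2 fold change was −0.54 (adjusted p 0.239). On the centromere side the highest value was that of PGAM5, a mitochondrial phosphatase gene, at 0.24 (adjusted p in edgeR 0.0593, SE 0.082). PGAM5, GOLGA3 and P2RX2 had counts within 25% of those of a member in every library but are not adjacent to it in gene order. CHFR, which encodes a mitotic checkpoint ubiquitin ligase and is the nearest protein-coding neighbour of ZNF605, was at 0.072. The step from CHFR to ZNF605 or from ZNF268 to ANHX was not tested as a difference.

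**Figure D4:**
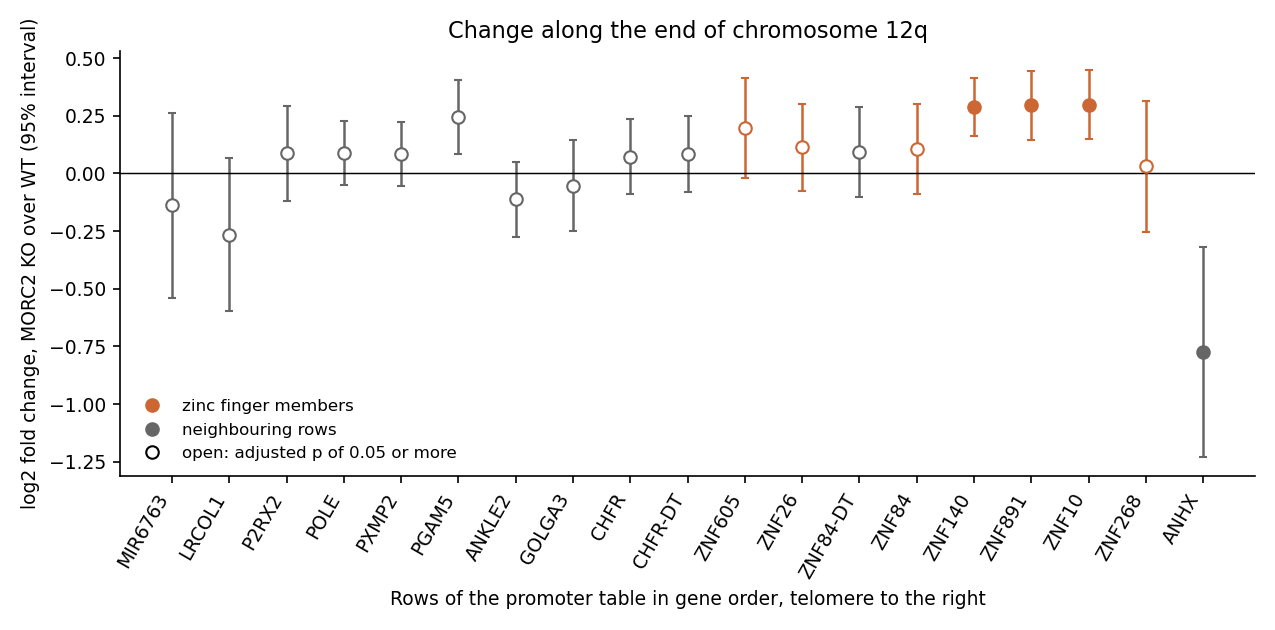
Log2 fold change of MORC2 KO over WT with 95% intervals for 19 consecutive rows at the end of chromosome 12q, in gene order with the telomere to the right. Filled circles have an edgeR adjusted p under 0.05. ZNF140, ZNF891 and ZNF10 are filled above 0, ANHX is filled at −0.77, and the intervals of the other 15 rows, except that of PGAM5, include 0.

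The other zinc finger rows gave a frame for these values. The 469 tested promoters with a symbol of ZNF and digits, the members left out, had a median log2 fold change of 0.060, and 35 of them were called higher and 7 lower. The list from the cluster at 7q11.21 had 10 tested promoters with a median of 0.019, of which 0 were called by edgeR and 3 had an unadjusted p under 0.05. The 8 promoters of the list at 8q24.3, also near a telomere, had a median of 0.037, and 1 was called, ZNF34, at 0.26 (edgeR adjusted p 0.00318). No test set the members apart from these lists.

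The members act through the KRAB pathway. The promoters of its cofactors, and those of MORC2 and the HUSH complex, were read out from the same fit. Of 14 promoters for TRIM28, SETDB1, heterochromatin proteins, histone deacetylases, DNMT1, CHD3 and the HUSH complex with MORC2, 3 were called higher and 0 lower, with a median log2 fold change of 0.15. The called ones were MORC2 and the HUSH genes TASOR and PPHLN1, at 0.43, 0.44 and 0.26 (edgeR adjusted p 0.000279, 0.000124 and 0.0394). No cofactor of the KRAB domain on the list was called. MPHOSPH8, which encodes the chromodomain subunit of HUSH, was at 0.20 and was not called (edgeR adjusted p 0.142). The call of PPHLN1 was lost without KO replicate 2 (0.19, edgeR adjusted p 0.542) and without WT replicate 2 (0.17, adjusted p 0.421). It was also lost with the replicate block (edgeR adjusted p 0.0714) and with 7 other alternatives, which were total counts, loess offsets, the filter at a mean count of 50, the edgeR 4 fit, DESeq2, limma-trend and thinned counts. The call of MORC2 was lost without KO replicate 2 (0.43, edgeR adjusted p 0.0837), with total counts and with DESeq2, and that of TASOR with total counts and with DESeq2. TRIM28, which binds the KRAB domain, and SETDB1, the methyltransferase it recruits, were at −0.026 (SE 0.073) and −0.0063 (SE 0.076), and neither was called (edgeR adjusted p 0.872 and 0.972). Heterochromatin protein genes lay at 0.24 (CBX1, edgeR adjusted p 0.0508), 0.10 (CBX5) and −0.080 (CBX3).

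The rows whose profile over the 4 libraries was most like the mean of the members were MAP3K15 on chromosome X, KIF5B on chromosome 10 and TEKT1 on chromosome 17. Likeness was the root mean square difference of log2 CPM after centring each row, which was 0.0064, 0.0072 and 0.0078 for these rows. With only 4 libraries, 63 of 19826 rows were within 0.02 of the members' mean.

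In WT cells the end of chromosome 12q carried a short series of strong, well spaced peaks. The authors' WT peak list, on CHM13, held 2436 peaks on chromosome 12, and its last 6 lay at 133013111 to 133014208, 133043401 to 133044290, 133094334 to 133095291, 133137315 to 133138493, 133187128 to 133188128 and 133238638 to 133239329. Their fold enrichment over local background was 13.4, 16.3, 13.2, 11.17, 14.4 and 12.6 in that order, between the 89.2th and the 99.6th percentile of the 50883 peaks, whose median was 5.91. Their widths ran from 692 to 1179 bp, against a median of 534 bp over the list. They stood 29192 to 53234 bp apart from the peak before, where the median gap on the chromosome was 21575 bp. The number 6 was taken because the members occupy 6 separate promoter regions, and this choice was made after the values were seen. No CHM13 annotation was used here, so no peak was assigned to a gene, and the list carries no replicate values.

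**Figure D5:**
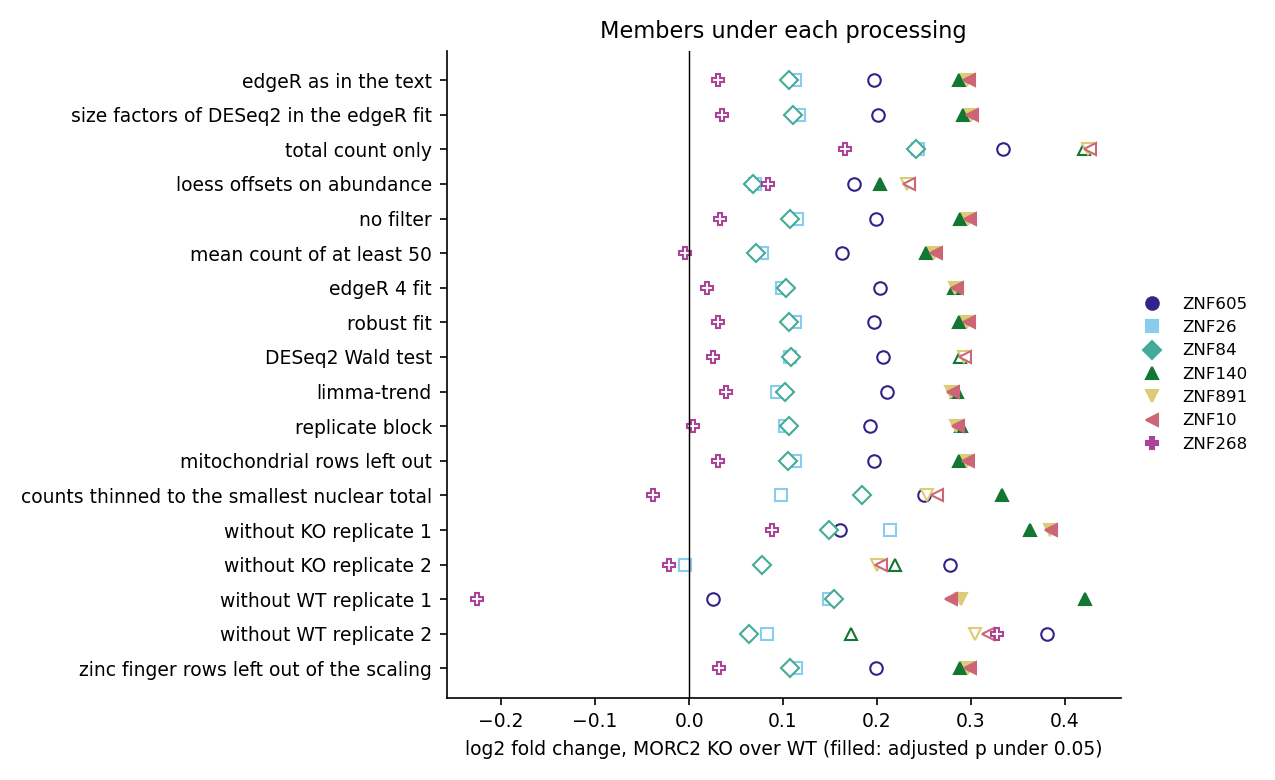
Log2 fold change of MORC2 KO over WT for each of the 7 members (symbols) under the processing used in the text and 17 alternatives, on the x axis, with filled symbols at an adjusted p under 0.05. ZNF140, ZNF891 and ZNF10 stay above 0 in every line, filled or not, whereas ZNF268 crosses 0 and is at −0.23 without WT replicate 1.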

How the data were processed

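ATAC-seq libraries of 2 MORC2 KO and 2 WT HEK293T cultures were compared. The authors trimmed the reads, aligned them with Bowtie2 to CHM13, kept well mapped proper pairs, and took out duplicates with Picard. Values in the deposited promoter table are raw fragment counts. The study describes promoters as 2 kb around a gene start, and counting of fragments in genomic windows, while the submitters' processing notes name featureCounts. Which of these made the table is not given in the sources used here. The authors called peaks with MACS2, giving 1 list for the WT libraries, and the deposited list gives a score, a fold ratio over background and a −log10 q-value.

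Symbols and gene order came from a RefSeq table on GRCh38.p14, which named 28763 of 28775 IDs. Rows were filtered with filterByExpr, which removed 1128, and scaled by TMM. The fit was edgeR 4.0.16 (R 4.3.3, legacy quasi-likelihood, F-test, no covariates) over 27647 rows and all 4 libraries. P-values were adjusted by Benjamini-Hochberg and called under 0.05. Standard errors were derived from the F statistics, and 95% intervals from the moderated degrees of freedom. limma 3.58.1 and DESeq2 1.42.0 were alternatives. The fit was tested on simulated data. Chi-square per degree of freedom was 1.20 between KO libraries and 1.32 between WT libraries, which exceeds counting noise in both pairs. The labels call the libraries replicates, and the methods describe independent WT samples and separately edited KO pools. The alternatives covered scaling, filter, fit, tool, threshold, thinning, the replicate block, mitochondrial rows and each library left out. Intervals cover counting error and the spread of these libraries only.

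The members and lists were chosen with earlier results of these data known. All 7 members are named. Neighbours are the 10 rows of the table before ZNF605 in gene order and every row between or after the members. The ZNF143-type motif and the last 6 peaks were chosen after their values were seen. For 1 cell type marker the result is not reported here.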

Additional observations from a re-analysis of the deposited data

How the results depend on the processing

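The 3 members called of 7, and the 1229 promoters called (954 higher, 275 lower), became 0 and 20 with total counts alone, 1 and 388 with loess offsets, 0 and 7 with the DESeq2 Wald test, and 1 and 452 with counts thinned in 1 random draw to the smallest nuclear total of 6119609. The members called stayed at 3 while all calls numbered 787 at a mean count of at least 50, 717 with limma-trend, 765 with the replicate block and 2249 at an adjusted p under 0.1. Leaving out each library gave 0 to 3 members (0 without KO replicate 2 and without WT replicate 2) and 41 to 1637 promoters, in fits where the lone library of a group is assumed to vary like the other group. Fits without a library also have fewer samples, and the cause of these changes was not tested. The same-numbered libraries deviated from their group means with a correlation of 0.018 over 19833 rows, which does not pair the libraries, and the block changed the call of no member.

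The member median of 0.20, over all 7 rows, was 0.33 with total counts and 0.30 without WT replicate 2. It moved by less than the spread between replicates (0.107) in the other 15 alternatives. With total counts the median of all tested promoters moved as well, from −0.017 to 0.12. ZNF268 changed sign, to −0.0043 at a mean count of at least 50, −0.038 with thinned counts, −0.021 without KO replicate 2 and −0.23 without WT replicate 1, and lay between −0.23 and 0.33 with 1 library left out. ZNF26 was at −0.0040 without KO replicate 2, the only change of sign among its alternatives, and at up to 0.21 with another library left out. Of the comparisons of single members, 105 kept direction and call, and 16 kept direction and lost the call. Leaving the zinc finger rows out of the scaling, an alternative added after the data were seen, kept 3 members and 1275 promoters. ZNF268 had the fewest fragments of the members, 85 in WT replicate 1, and the part of depth in its changes was not tested.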

Other observations

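The ZNF143-type letters TGTAGTT, noticed in 4 members, were followed across the other promoters as a description only, with no test. Of tested promoters with a RefSeq window, 758 held the letters, with a median log2 fold change of 0.028 and 7.26% called higher in MORC2 KO, while 18325 did not hold them, with a median of −0.0013 and 4.08% called higher. Among promoters with a symbol of ZNF and digits, 53 held the letters, the 4 members among them, with a median of 0.11 and 11 called higher (20.8%). The 351 without the letters had a median of 0.053 and 23 called higher (6.55%). These groups differed in level as well, with a median WT accessibility of 16.04 CPM with the letters and 24.0 CPM without. Within the cluster the exact letters did not follow the calls. ZNF140 holds them and was called, and ZNF10 and ZNF891 do not hold them and were called. ZNF605, ZNF26 and ZNF268 hold them and were not called. ZNF891 does hold the near form CGTAGTT after GGGA and a pair of bases, and near forms were not counted.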
